A study of Homo sapiens with 4 samples.

Results

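The genes described here encode ATP-dependent chromatin remodellers and their companion subunits: the SMARC, ACTL6, ARID, BRD7/BRD9 and PBRM1 subunits of the SWI/SNF complexes, the ISWI ATPases, the CHD family, the INO80 complex and the DNA-binding ARID proteins. They were taken by symbol, as every probe whose annotated gene name begins with SMARC, CHD and a digit, ARID and a digit, INO80, PBRM1, BRD7, BRD9 or ACTL6. The rule found 42 genes on 67 probes, of 18661 genes on 27565 probes with a single gene name. Of these, 36 genes on 47 probes were detected (detection p below 0.01, from each array's negative control probes) on at least 1 array, against 10128 genes on 12953 probes in all, and those 36 are described. The other 6, ACTL6B, ARID1B, ARID3C, CHD5, INO80 and PBRM1, were not detected on any array, with raw intensities between 63.2 and 119 over their probes. One of the 36, BRD7P3, is a pseudogene and a near copy of BRD7, so that signal from BRD7 cannot be told apart from its own.

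Total RNA was measured in SW1353, a line from a human chondrosarcoma that stands in for chondrocytes, on Illumina whole-genome arrays, with 1 culture and 1 array for each condition. Cells in IL1_TSA were given trichostatin A (TSA, 250 ng/ml), an inhibitor of the zinc-dependent histone deacetylases, 1 h before the cytokine interleukin-1α (IL-1) was added for 6 h. Con_TSA cells received TSA without IL-1, IL1 cells received the DMSO vehicle and then IL-1, and Con cells received DMSO alone. How long the cells without IL-1 were kept is not stated. A legend gives a longer exposure to the cytokine than the sample labels, which are followed here. With a single array per condition no difference between 2 arrays has a replicate check or a test, so "higher" and "lower" below mean at least 1.5-fold (0.58 on the log2 scale) between 2 arrays, with the gene detected on the brighter one. The spread between probes of the same gene stands in for the error of such a difference. It was pooled over all genes with several probes at a like level and scaled to the number of probes averaged. For the 25 members with 1 kept probe it therefore comes from other genes. It is given as ± SD beside a difference. It holds no variation between cultures and no error that the probes of a gene share.

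The arrays were alike in depth: 26.8% to 28.8% of probes were detected, and 35 of the 36 genes were detected in IL1_TSA, 34 in IL1, 33 in Con_TSA and 35 in Con. Median raw intensity was 113 in IL1_TSA, 91.5 in IL1, 86.9 in Con_TSA and 95.3 in Con, so levels are given after normalisation (neqc), on the log2 scale. Of 12 chondrocyte markers, SOX9, COL11A1 and HAPLN1 were detected and COL2A1, COL9A1, COL11A2, ACAN, COMP, MATN3, PRG4, SOX5 and SOX6 were not, so the label of chondrocyte rests on 3 of its markers. Of 10 markers of other cells, CD68 and VWF were detected on all 4 arrays and MYOD1, a muscle regulator, on 2. MYOD1 measured 6.02 in Con_TSA against 7.97 in Con and 5.37 in IL1_TSA against 7.68 in IL1, VWF lay between 6.99 and 7.77 and CD68 between 11.64 and 12.24, and the other 7 were not detected. MYOD1 was thus not detected with TSA, on the arrays where the members described next were lower, and its part in their differences was not tested.

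Chromatin remodellers use ATP to slide, evict or exchange nucleosomes, and so set how open a stretch of DNA is to transcription factors. SWI/SNF complexes carry 1 of the paralogous ATPases SMARCA4 (BRG1) or SMARCA2 (BRM), a shared core, and further subunits that set the variant: ARID1A or ARID1B in canonical BAF, ARID2, BRD7 and PBRM1 in PBAF, and BRD9 in the non-canonical form. Several members bind acetylated histones through bromodomains, and CHD3 and CHD4 are the ATPases of NuRD, a complex that also holds the deacetylases HDAC1 and HDAC2, which TSA inhibits.

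To show the DNA before the start of the SWI/SNF genes that were lower with TSA on both pairs of arrays, the 250 bases upstream of the RefSeq start (GRCh38.p14) are printed for the 3 of them with a single start in the table used, all on the plus strand: SMARCB1 at chr22:23786716-23786965, SMARCD1 at chr12:50085092-50085341 and ARID1A at chr1:26695765-26696014. Capitals mark GC boxes (GGGCGG, or CCGCCC on the other strand) and CCAAT boxes (CCAAT, or ATTGG on the other strand).
SMARCB1: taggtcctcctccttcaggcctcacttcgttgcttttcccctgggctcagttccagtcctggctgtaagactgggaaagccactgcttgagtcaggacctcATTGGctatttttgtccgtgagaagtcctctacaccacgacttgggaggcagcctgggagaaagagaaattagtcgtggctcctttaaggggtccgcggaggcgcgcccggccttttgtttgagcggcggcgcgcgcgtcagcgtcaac
SMARCD1: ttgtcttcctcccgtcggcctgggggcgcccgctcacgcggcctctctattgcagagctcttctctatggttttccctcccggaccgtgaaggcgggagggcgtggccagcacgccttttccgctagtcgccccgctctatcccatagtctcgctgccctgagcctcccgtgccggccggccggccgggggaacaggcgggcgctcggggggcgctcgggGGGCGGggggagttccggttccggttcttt
ARID1A: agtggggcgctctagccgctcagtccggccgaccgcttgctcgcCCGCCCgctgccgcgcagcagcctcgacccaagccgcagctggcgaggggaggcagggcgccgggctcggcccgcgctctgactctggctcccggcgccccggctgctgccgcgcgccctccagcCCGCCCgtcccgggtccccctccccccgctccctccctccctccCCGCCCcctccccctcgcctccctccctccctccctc
SMARCB1 had 58.0% G+C, 16 CpG, no GC box and 1 CCAAT box. SMARCD1 had 70.4% G+C, 28 CpG and 1 GC box, and ARID1A had 80.4% G+C, 30 CpG and 3 GC boxes, neither with a CCAAT box. Over the 45 listed starts of 27 of the 36 genes, 53.3% held a GC box and 20.0% a CCAAT box, against 42.6% and 32.0% of all 35116 promoters in windows of the same length. The 8 genes lower in both TSA comparisons have 14 starts there, of which 42.9% held a GC box and 21.4% a CCAAT box. A match describes these letters and does not show a bound site.

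To ask what TSA did to the remodellers in resting cells, Con_TSA was compared with Con. Of the 36 genes 12 (33.3%) were lower and 2 (5.56%) were higher, against 16.4% lower and 16.3% higher among all 10128 genes. In bulk RNA, fewer expressing cells and less RNA per cell cannot be told apart. The median difference of the 36 genes was -0.32, and that of all genes was -0.01. In the authors' deposited log2 values these medians were -0.06 and 0.0003. In IL-1-stimulated cells, IL1_TSA against IL1, 8 genes (22.2%) were lower and 4 (11.1%) higher, against 18.2% and 21.2% of all genes, with a median of -0.17 beside 0.02. The members lay below 0 in 24 of 36 cases without IL-1 and in 21 of 36 with it. Among all 10128 genes, 5127 lay below 0 without IL-1 and 4897 with it. These 2 TSA comparisons share no array. In both, 8 genes (22.2%) were lower and 1 (2.78%) was higher, where 10.1% and 12.4% of all genes were. No member was called in opposite directions, and 38 of all 10128 genes were. The sign was the same for 27 of the 36 members and for 7839 of all 10128 genes. Pearson's r between the 2 sets of differences was 0.85 across the members, with a Spearman rho of 0.74 (0.73 and 0.74 over all genes). Genes on the same 4 arrays are not replicates of each other. Called differences were beyond 2 probe SDs for 12 of 14 members without IL-1, ARID2 and CHD2 falling short, and for 11 of 12 with IL-1, CHD6 falling short. A call already needs 1.5-fold, which without IL-1 is past 2 probe SDs for any member at level 8 or above. With IL-1 it is past or close to 2 probe SDs at those levels. Most of these passes were thus set by the call itself and are no separate check of the error.

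Because the 2 pairs share no array, the mean TSA difference can be tested with IL-1 as the other factor (limma, additive fit over all 10128 genes, 1 residual degree of freedom beside a prior of 4.03). This fit was chosen after seeing the data. At an adjusted p below 0.05, 9 of the 36 members were lower and 1 was higher, where 10.6% and 12.8% of all genes were. The 9 were INO80D, BRD9, SMARCB1, ARID5B, SMARCAL1, ARID1A, SMARCAD1, SMARCD1 and INO80C, and the other was ARID3B. The limma adjusted p was 0.00944 for INO80D and lay between 0.0115 (BRD9) and 0.0389 (INO80C) for the rest. ACTL6A (adjusted p = 0.0557), INO80B (0.0630), CHD1 (0.0798), BRD7P3 (0.0826) and SMARCA4 (0.113) were among those that did not pass. The fit takes the TSA difference as equal with and without IL-1 and borrows most of its spread from other genes. INO80D was not detected on either TSA array. Its levels there are background, so its fitted difference of -2.77 is not a measured size. It passed the detection filter through the vehicle arrays alone, which fixed its direction. Its adjusted p and its place among the 9 are therefore no evidence of a difference.

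**Figure D1:**
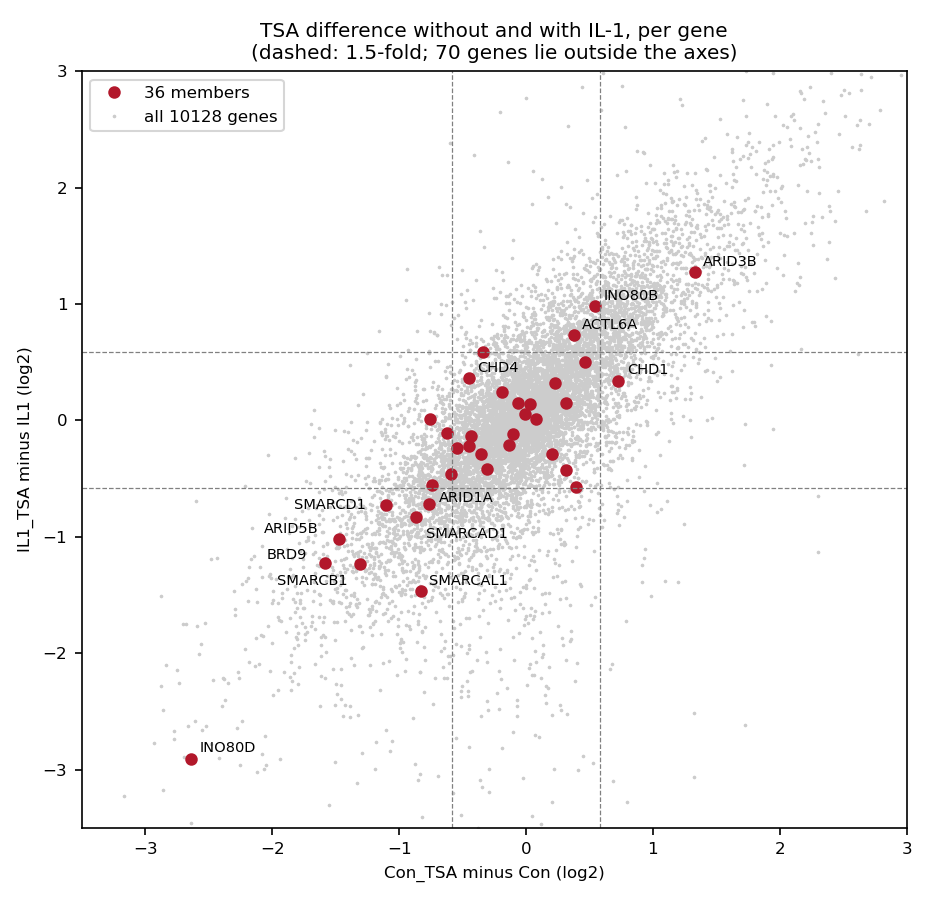
Log2 difference with TSA in resting cells (x axis, Con_TSA minus Con) and in IL-1-stimulated cells (y axis, IL1_TSA minus IL1) for the 36 members (red) over the 10128 detected genes (grey, 70 of them outside the axes), with dashed lines at 1.5-fold. The members lower in both lie in the bottom left, with INO80D farthest out, and ARID3B is the single member past both dashed lines in the top right.

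The catalytic subunits of SWI/SNF stayed within 1.5-fold. SMARCA4 measured 10.74 in Con_TSA against 11.28 in Con, a difference of -0.54 ± 0.25 that lies just inside the threshold, and 10.79 in IL1_TSA against 11.02 in IL1 (-0.24 ± 0.30). Its paralogue SMARCA2 differed by 0.03 ± 0.25 and 0.14 ± 0.30 in the same comparisons, with levels between 10.89 and 11.27 on the 4 arrays. SMARCA2 thus differed by less than the pooled probe SD on both pairs of arrays. SMARCA4 was below its vehicle array on both, by less than that SD with IL-1. Each rests on 1 kept probe.

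Among the 7 detected core subunits, SMARCB1 and SMARCD1 were lower in both TSA comparisons. SMARCB1, the core subunit (INI1) whose loss defines malignant rhabdoid tumours, measured 8.83 in Con_TSA against 10.14 in Con, and 8.53 in IL1_TSA against 9.77 in IL1. The resting pair thus differed 2.48-fold (-1.31 ± 0.20) and the stimulated pair 2.36-fold (-1.24 ± 0.21), both downward. Both arrays with TSA were below both without, and its 2 probes had the same sign, at -1.12 and -1.49 without IL-1 and -0.97 and -1.50 with it. Their raw intensities were 501 and 346 in Con_TSA against 1280 and 1075 in Con, and 727 and 450 in IL1_TSA against 993 and 822 in IL1. SMARCD1 (BAF60A), which links SWI/SNF to transcription factors, measured 7.68 in Con_TSA against 8.78 in Con (2.15-fold lower, -1.11 ± 0.20) and 7.68 in IL1_TSA against 8.41 in IL1 (1.65-fold lower, -0.72 ± 0.21). Its brighter probe, detected on all 4 arrays, gave -1.18 and then -0.81. The dimmer one, detected in Con alone, gave -1.03 and -0.63, which are differences against background and enter the mean.

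The actin-related subunit ACTL6A (BAF53A), which SWI/SNF shares with INO80 and TIP60, went the other way with IL-1 present: 11.45 in IL1_TSA against 10.72 in IL1 (1.66-fold higher, 0.73 ± 0.22, probes 0.64 and 0.82), and 11.23 in Con_TSA against 10.85 in Con (0.38, within 1.5-fold). The scaffold subunits SMARCC1 and SMARCC2 differed by between -0.12 and 0.15 with TSA, and SMARCE1 by -0.45 and -0.22. SMARCD3, a paralogue of SMARCD1, differed by 0.21 ± 0.20 without IL-1 and by -0.29 ± 0.21 with it.

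Of the variant subunits, ARID1A and BRD9 were lower in both comparisons. ARID1A, the DNA-binding subunit of canonical BAF and a frequently mutated tumour suppressor, measured 9.68 in Con_TSA against 10.45 in Con (1.70-fold lower, -0.77 ± 0.25), and 9.92 in IL1_TSA against 10.64 in IL1 (1.65-fold lower, -0.72 ± 0.30). Its other probe was not detected on any array and differed by 0.03 and 0.01. BRD9, the bromodomain subunit of non-canonical BAF, measured 9.0 in Con_TSA against 10.59 in Con, and 9.10 in IL1_TSA against 10.33 in IL1. It was thus lower by 3.0-fold in resting cells (-1.58 ± 0.28) and by 2.33-fold in stimulated ones (-1.22 ± 0.30). The bromodomain subunit BRD7 of PBAF was within 1.5-fold in both, as it measured 10.70 in Con_TSA against 10.47 in Con and 10.72 in IL1_TSA against 10.40 in IL1. ARID2, the PBAF counterpart of ARID1A, was called lower in resting cells (-0.62 ± 0.32), where it was near the lowest detected level, and not with IL-1 (-0.11), where its probes gave opposite signs. One of its 2 probes was not detected in Con_TSA. Over the 13 detected SWI/SNF subunits, 5 were lower and none higher in Con_TSA against Con (16.4% and 16.3% of all genes), 4 were lower and 1 higher in IL1_TSA against IL1 (18.2% and 21.2%), and the 4 lower in both (10.1%) were SMARCB1, SMARCD1, ARID1A and BRD9.

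**Figure D2:**
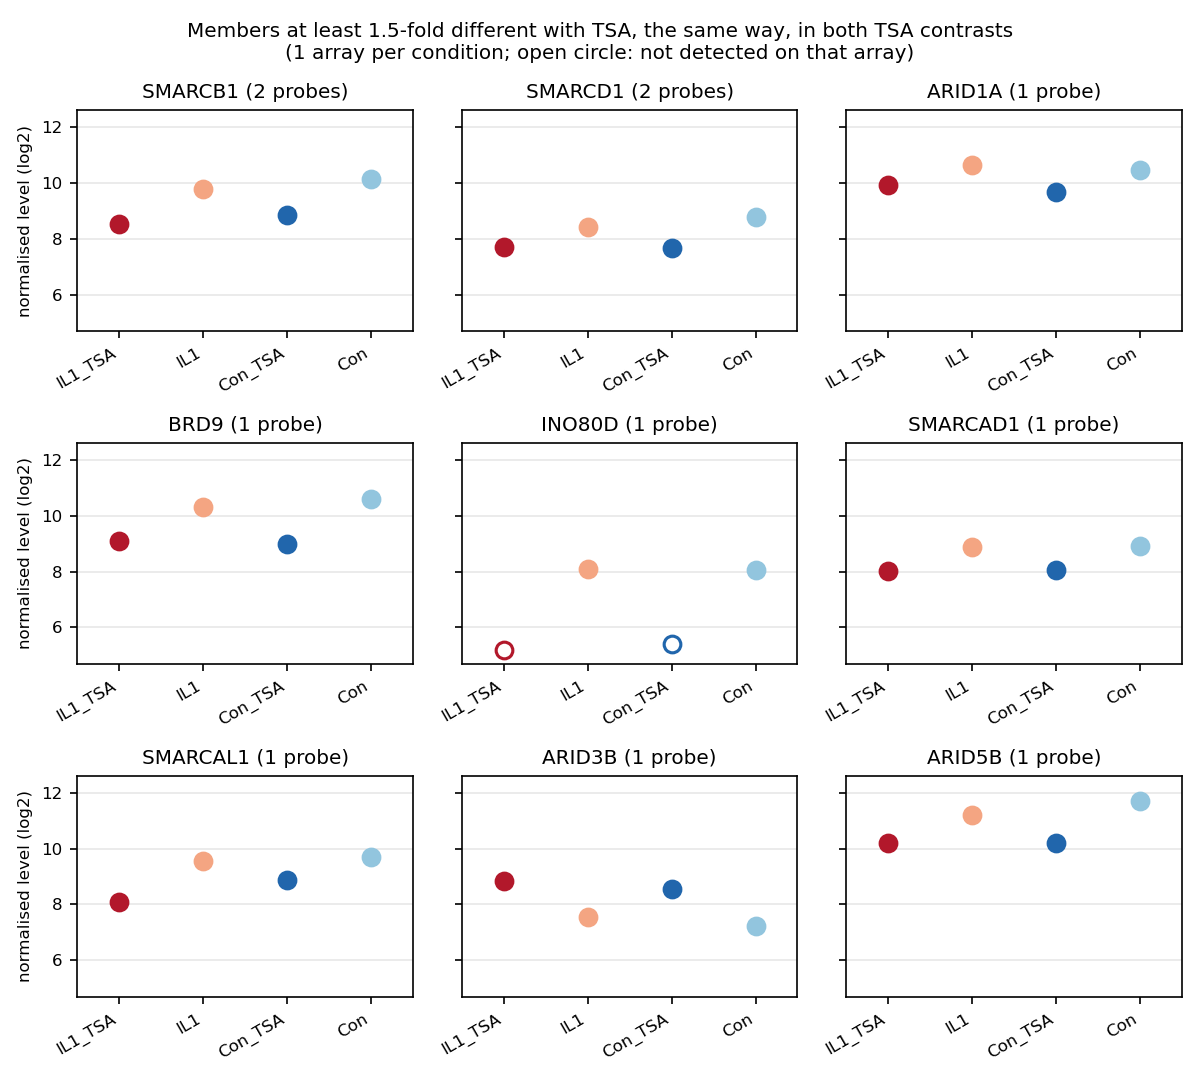
Normalised level (y axis, log2) of the 9 members called in the same direction in both TSA comparisons, 1 point per array in IL1_TSA, IL1, Con_TSA and Con, with open circles where the gene was not detected. For 8 of the 9 the TSA arrays lie below their vehicle arrays, and for ARID3B above them.

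The remaining members called in both comparisons belong to other complexes. INO80D, a subunit of the INO80 complex, which acts in nucleosome sliding and in the handling of the histone variant H2A.Z, was not detected with TSA: its raw intensity was 98.2 in Con_TSA against 331 in Con, and 122 in IL1_TSA against 326 in IL1. After background correction the difference was at least 2.68-fold in resting cells and at least 3.29-fold in stimulated ones, both downward, taking the lowest level of a detected probe on each TSA array as the bound. These bounds hold for the neqc values only. Without background correction the differences were -1.45 and -1.60 on the log2 scale, and in the authors' deposited values -0.40 and -0.45. The bounds are thus no lower limits under other processing. Detected on the vehicle arrays alone, INO80D could not have been called higher. Its normalised levels were 5.41 in Con_TSA against 8.05 in Con, and 5.20 in IL1_TSA against 8.11 in IL1. The call rests on 1 probe, since the other was not detected anywhere. None of the other INO80 subunits was lower in both: INO80B was 0.55 ± 0.35 apart in Con_TSA against Con and 1.97-fold higher in IL1_TSA against IL1 (7.99 against 7.01, 0.98 ± 0.38), INO80C was 1.67-fold lower in Con_TSA (-0.74 ± 0.28) and -0.56 apart with IL-1, and INO80E differed by -0.35 and -0.29.

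The SNF2-type enzymes SMARCAD1 and SMARCAL1, which act at replication forks and in DNA repair outside SWI/SNF, were lower in both comparisons. SMARCAD1 measured 8.06 in Con_TSA against 8.93 in Con (1.82-fold lower, -0.87 ± 0.28) and 8.04 in IL1_TSA against 8.87 in IL1 (1.78-fold lower, -0.83 ± 0.30). SMARCAL1, an annealing helicase that restarts stalled forks, measured 8.88 in Con_TSA against 9.71 in Con (1.78-fold lower, -0.83 ± 0.28) and 8.09 in IL1_TSA against 9.56 in IL1 (2.77-fold lower, -1.47 ± 0.30). It was lowest with IL-1 and TSA together.

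Among the ARID proteins outside SWI/SNF, ARID3B and ARID5B were called in opposite directions. ARID3B, which binds AT-rich DNA, measured 8.56 in Con_TSA against 7.23 in Con (2.52-fold higher, 1.33 ± 0.28) and 8.83 in IL1_TSA against 7.55 in IL1 (2.42-fold higher, 1.28 ± 0.30). Its raw intensity was 355 in Con_TSA against 218 in Con, and 678 in IL1_TSA against 244 in IL1, and both TSA arrays were above both vehicle arrays. ARID5B, known in the mouse as a coactivator of SOX9 in chondrocyte formation, measured 10.22 in Con_TSA against 11.69 in Con (2.78-fold lower, -1.47 ± 0.25) and 10.20 in IL1_TSA against 11.22 in IL1 (2.03-fold lower, -1.02 ± 0.30). SOX9 itself, detected on all 4 arrays, measured 10.01 in Con_TSA against 10.32 in Con and 9.60 in IL1_TSA against 9.88 in IL1. ARID3A, the paralogue of ARID3B, differed by 0.31 ± 0.28 and -0.43 ± 0.30, and ARID4B, a subunit of the SIN3 deacetylase complex, by -0.43 and -0.13, with 1 of its 2 probes at -0.95 in resting cells, where it was not detected with TSA, and the other at 0.08.

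**Figure D3:**
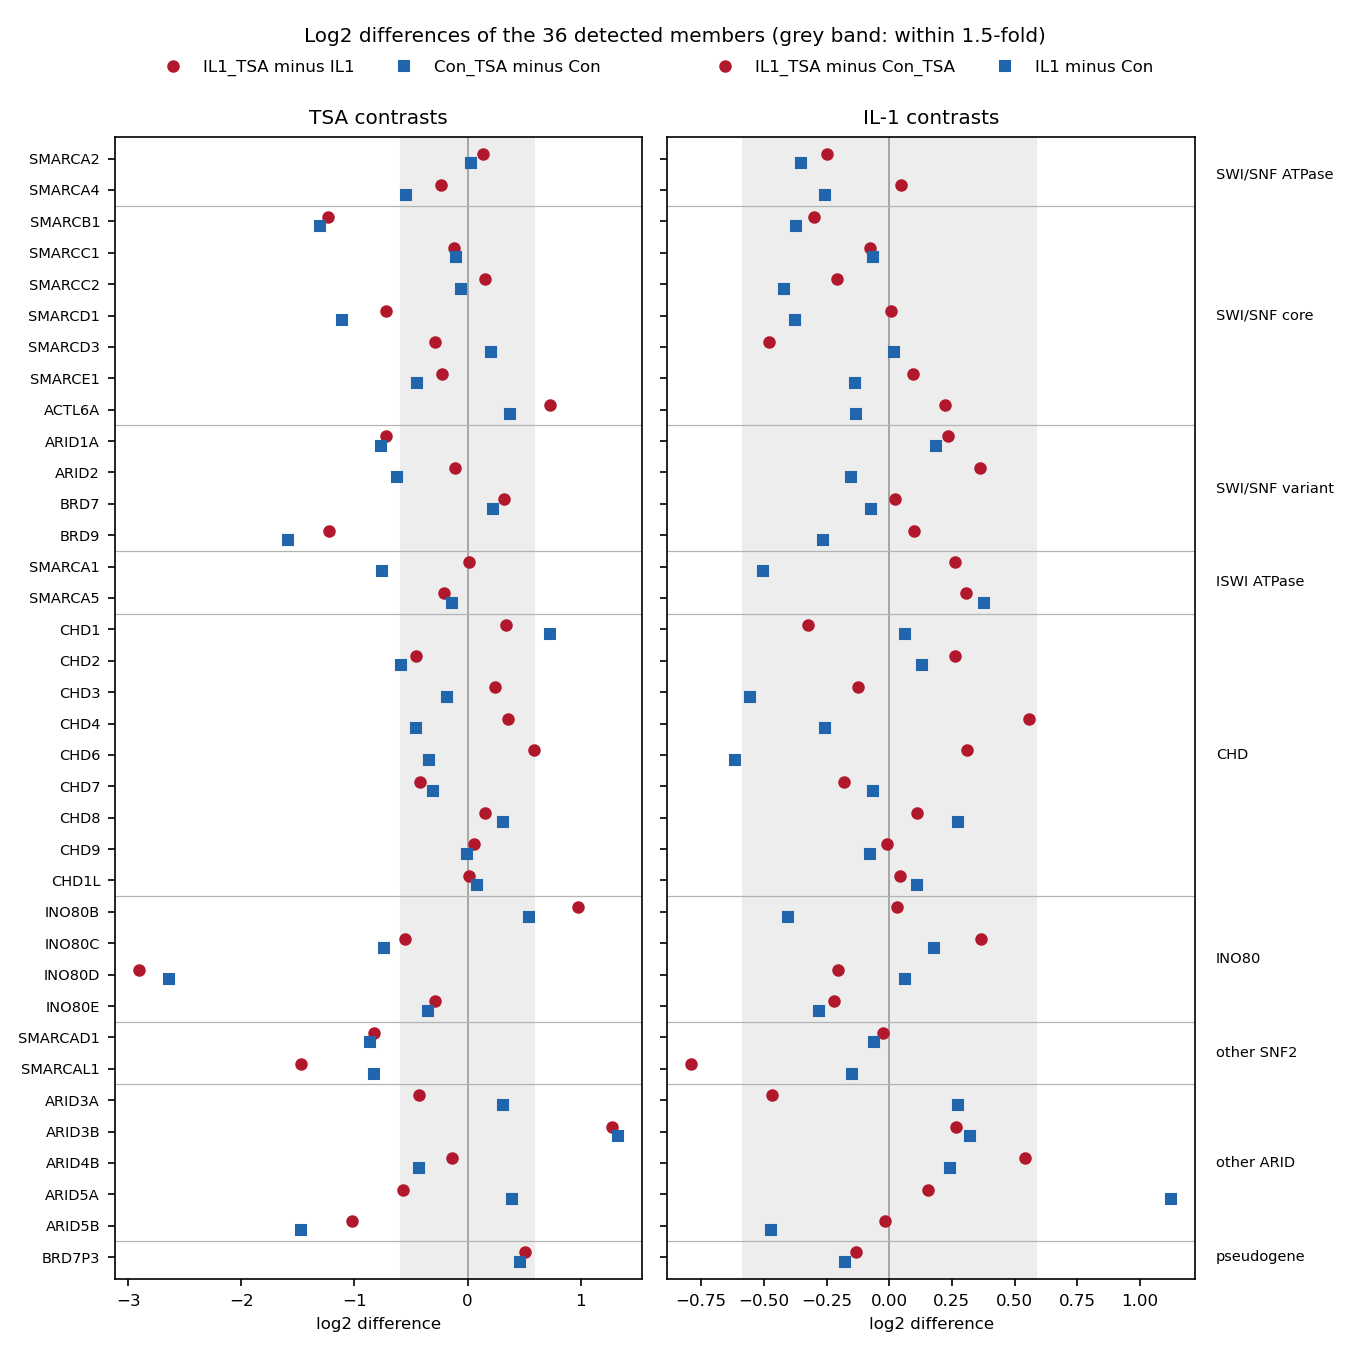
Log2 differences (x axes) of the 36 members, 1 row per gene in order of role, for the TSA comparisons on the left and the IL-1 comparisons on the right, with the grey band marking differences within 1.5-fold. Most points outside the band are on the negative side of the TSA panel, and 3 lie outside it in the IL-1 panel.

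Neither ISWI ATPase was called in both comparisons. SMARCA5 (SNF2H), the ATPase of most ISWI complexes, differed by -0.14 and -0.21 in the TSA comparisons. SMARCA1 (SNF2L) was 1.68-fold lower in Con_TSA against Con (6.72 against 7.47, -0.75 ± 0.35) and 0.01 apart in IL1_TSA against IL1. Of the 9 detected CHD genes, none was called in the same direction in both comparisons. CHD1, which reads trimethylated H3K4 at active genes, was 1.66-fold higher in Con_TSA (10.09 against 9.36 in Con, 0.73 ± 0.28) and 0.34 ± 0.30 apart with IL-1. CHD2 was called lower in Con_TSA (-0.59 ± 0.35) and was -0.46 apart with IL-1. CHD6 was called higher in IL1_TSA against IL1 (0.59 ± 0.46), but was not detected in IL1, which allows a bound of at least 1.01-fold. CHD7, CHD8, CHD9 and CHD1L differed by between -0.42 and 0.31. CHD4, the main ATPase of NuRD, had a difference of -0.45 ± 0.17 in resting cells (10.65 in Con_TSA against 11.10 in Con) and of 0.36 ± 0.22 with IL-1 (11.21 in IL1_TSA against 10.84 in IL1). Its 2 probes gave -0.34 and -0.56, and then 0.30 and 0.42. The other NuRD ATPase, CHD3, had 2 probes that opposed each other, at -1.05 and 0.68 in Con_TSA against Con and at -0.59 and 1.08 in IL1_TSA against IL1, so its mean is no measure of the gene. Over the 15 detected ATPases, 4 were lower and 1 higher without IL-1 (16.4% and 16.3% of all genes), 2 were lower and 1 higher with it (18.2% and 21.2%), and SMARCAD1 and SMARCAL1 were the 2 lower in both (10.1%).

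**Figure D4:**
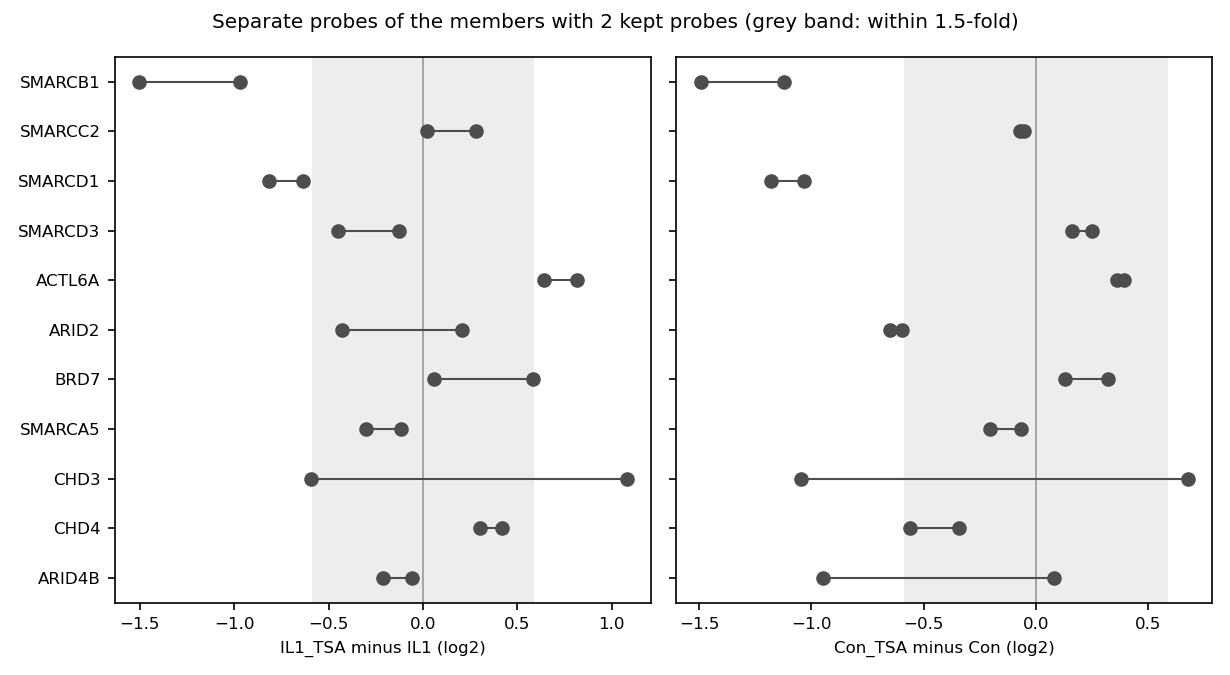
Log2 difference of each probe (points, joined within a gene) for the 11 members with 2 kept probes, in IL1_TSA minus IL1 on the left and Con_TSA minus Con on the right. Probes of SMARCB1, SMARCD1 and ACTL6A lie on the same side of 0 in both panels, and those of CHD3 lie on opposite sides of it.

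Probes of a gene had the same sign in 9 of the 11 members with 2 kept probes in each TSA comparison (81.8%), against 74.9% of 2370 such genes in Con_TSA against Con and 76.9% in IL1_TSA against IL1. The other 25 members rest on a single kept probe. The size of the differences depended on the normalisation. In the authors' own deposited log2 values, every called member kept its sign in both TSA comparisons, but 3 of the 14 without IL-1 (SMARCB1 at -0.76, BRD9 at -1.01 and ARID5B at -1.15) and 5 of the 12 with it (SMARCB1 at -0.64, BRD9 at -0.77, SMARCAL1 at -0.70, ARID5B at -0.81 and ACTL6A at 0.65) stayed past 1.5-fold. ARID3B was 0.46 and 0.45 there, and INO80D -0.40 and -0.45. Under all 6 processing alternatives, SMARCB1, BRD9 and ARID5B kept their calls in both TSA comparisons, and ACTL6A and SMARCAL1 theirs in IL1_TSA against IL1.

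**Figure D5:**
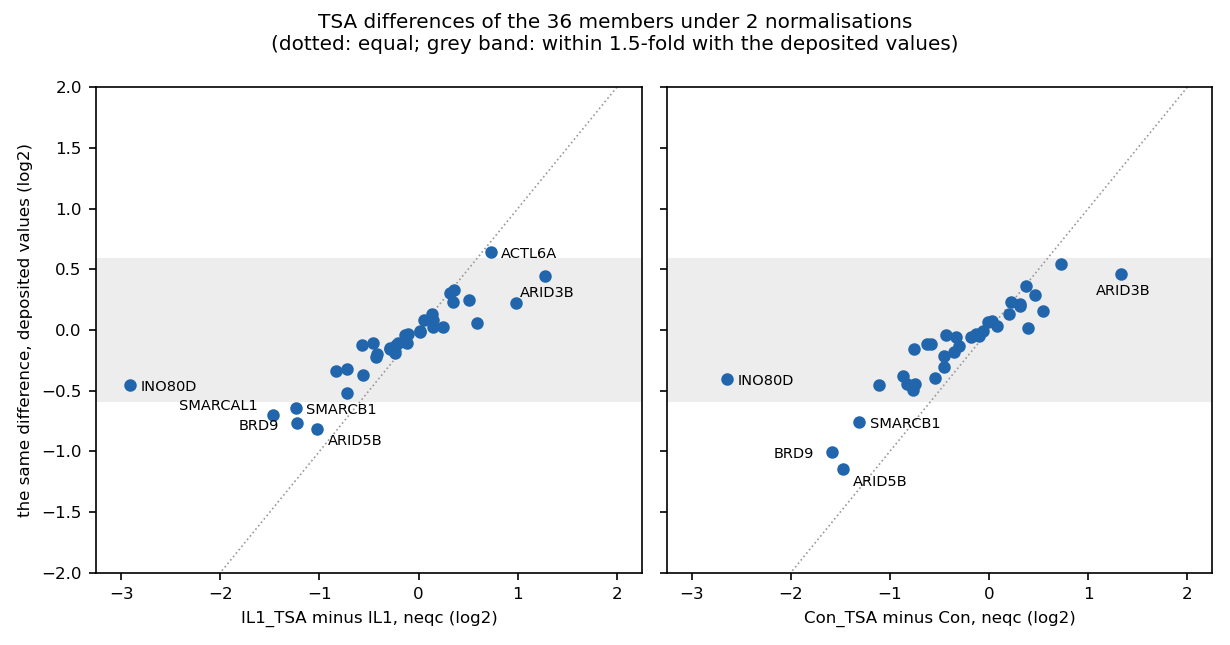
Log2 difference of the 36 members after neqc (x axes) and in the authors' deposited values (y axes), in IL1_TSA minus IL1 on the left and Con_TSA minus Con on the right, with the dotted line where they are equal. Points past the grey band on the y axis are SMARCB1, BRD9 and ARID5B in both panels, and SMARCAL1 and ACTL6A on the left.

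Few of these genes differed by 1.5-fold with IL-1 alone. In IL1 against Con, 1 of the 36 (2.78%) was higher and 1 lower, against 8.54% and 7.93% of all genes, with a median of -0.10 for the members and for all genes alike. The higher one was ARID5A, known in the mouse as a protein that stabilises interleukin-6 mRNA, at 7.37 in IL1 against 6.25 in Con, where it was not detected, so the bound after background correction was at least 1.68-fold higher (fitted difference 1.12 ± 0.41). Without background correction the difference was 0.62. In the authors' deposited values it was 0.20, within 1.5-fold, so the bound is no lower limit under other processing. It rests on 1 of 3 probes, and its raw intensity was 224 in IL1 against 148 in Con. The lower one, CHD6 (-0.61 ± 0.41), was not detected in IL1 and has a bound of at least 1.03-fold. Next in size among members detected on both arrays were SMARCA1 (-0.50), ARID5B (-0.47) and SMARCC2 (-0.42) below 0, and SMARCA5 (0.38), ARID3B (0.32) and ARID3A (0.28) above it.

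With TSA present, IL1_TSA against Con_TSA, no member was higher and 1 (2.78%) was lower, against 4.20% and 2.75% of all genes, and the median was 0.03 beside -0.03. The member was SMARCAL1, at 8.09 in IL1_TSA against 8.88 in Con_TSA (1.73-fold lower, -0.79 ± 0.26). ARID5A, the member higher with IL-1 alone, measured 6.80 in IL1_TSA against 6.64 in Con_TSA. CHD4 (0.56), ARID4B (0.54) and INO80C (0.37) were the highest of the rest, and SMARCD3 (-0.48) and ARID3A (-0.47) the lowest.

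Partner subunits and further SNF2-type enzymes that the symbol rule does not reach were counted in the same way. Of 56 detected, 17 were higher and 7 lower in Con_TSA against Con (median 0.25; 16.3% and 16.4% of all genes), 18 were higher and 11 lower in IL1_TSA against IL1 (median 0.25; 21.2% and 18.2%), and 15 were higher and 6 lower in both (12.4% and 10.1%). Of the 12 detected SWI/SNF partners, DPF3, a reader of acetylated histones, and BCL11B were called higher in both and none lower. Neither was detected on the vehicle arrays, so neither could have been called lower. BCL11B was at least 1.5-fold higher without IL-1 and at least 1.45-fold with it. DPF3 was at least 1.22-fold higher without IL-1, with no fold to be given with it. In the deposited values the log2 differences were 0.10 and 0.06 for DPF3, and 0.12 and 0.22 for BCL11B. Of 10 NuRD partners, MTA3 was lower in both (-1.07 and -1.20), while the deacetylases HDAC1 and HDAC2 differed by between -0.05 and 0.27. The 6 other SNF2 ATPases held 4 that were higher in both: HLTF (1.42 and 1.78), TTF2 (1.43 and 1.02), RAD54B (1.08 and 1.10) and HELLS (at least 1.56-fold and 1.69-fold, as 1 of its 2 probes was not detected on the vehicle arrays). In the deposited values HELLS differed by 0.11 and 0.17 on the log2 scale. Of 8 subunits of the SIN3 complex, SIN3B (1.35, and at least 1.82-fold against IL1, where it was not detected), ING1 (1.37 and 1.28) and SAP18 (0.94 and 0.80) were higher in both. SIN3B differed by 0.36 and 0.16 in the deposited values.

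The 16 partners from INO80, SRCAP and TIP60 divided: RUVBL1, ACTR5, ACTR6 and UCHL5 were higher in both, between 0.59 and 0.95. NFRKB was called higher in both too, by at least 1.40-fold and 1.07-fold, with log2 differences of 0.09 and 0.10 in the deposited values. It was not detected on the vehicle arrays, so it could not have been called lower. In contrast YY1, MCRS1, VPS72 and DMAP1 were lower in both, between -0.64 and -1.05. Of 4 ISWI partners, POLE3 was higher in both (0.74 and 0.86) and CHRAC1, its partner in the CHRAC complex, lower in both (-0.84, and at least 3.05-fold in IL1_TSA, where it was not detected). CHRAC1 differed by -0.18 and -0.34 in the deposited values. BAZ1A (ACF1), the accessory subunit of SMARCA5, was the single one of the 56 called in IL1 against Con, at 1.48, and it differed by -1.97 in IL1_TSA against IL1, by -0.45 in Con_TSA against Con and by -0.04 in IL1_TSA against Con_TSA. The IL1 array is part of the first 2 of these comparisons, and SMARCA5 itself was within 1.5-fold in each.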

How the data were processed

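Raw probe intensity values and their detection p-values were deposited by the authors without normalisation, with 1 array per condition. The authors also deposited a table of log2 values made with the lumi package per the labels, variance-stabilised and spline-normalised per the methods. It was used as an alternative. Probes were named from a platform table older than the HT-12 V4 chip that the methods name. It gave 27565 probes 1 gene, 13 several and 21206 no listed name; probes with several genes were left out. Intensities were background corrected and quantile normalised with neqc (limma 3.58.1, R 4.3.3, offset 16). Probes with a detection p below 0.01 on at least 1 array were kept and averaged per gene. Calls needed a 1.5-fold difference and detection on the brighter array. For a gene undetected on the dimmer array, the fold is a bound on neqc values from that array's lowest detected probe. Other processing can give a smaller fold. The probe SD came from genes with several probes, by level. The mean TSA difference was also tested in an additive limma fit of TSA and IL-1 with a trended prior and Benjamini-Hochberg adjustment over all genes. The calling step and the fit were tested on simulated data. Members, partner and marker lists were chosen with earlier results of these data known. Named genes are all detected ATPases, members called alike in both TSA comparisons or in an IL-1 comparison, the 3 highest and 3 lowest detected on both arrays in each comparison, and partners called alike in both. Promoters come from RefSeq (GRCh38.p14). SMARCD2 and ARID4A were not analysed here.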

Additional observations from a re-analysis of the deposited data

Results flagged for a closer look

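For 3 members the difference with TSA had opposite signs on the 2 pairs of arrays and was larger than 1 probe SD on each. The share of all genes that meets this rule was not counted, so the number is not read as a result about the members. By sign alone, a different rule, 27 of the 36 members and 7839 of all 10128 genes were alike on both pairs. With 1 array per condition the change between pairs was not tested. This change is given as the difference in IL1_TSA against IL1 less that in Con_TSA against Con. For CHD4 it was 0.81 (0.36 with IL-1 and -0.45 without), with a probe SD of 0.28. For ARID3A it was -0.74 (-0.43 and 0.31), with a probe SD of 0.41. For SMARCD3 it was -0.50 (-0.29 and 0.21), with a probe SD of 0.29. Its difference without IL-1 was barely past the probe SD of 0.20. None of these TSA differences passed 1.5-fold on its own.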

How the results depend on the processing

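Medians of the members kept their sign or moved by less than their spread under all 6 processing alternatives, but this criterion is loose and their size changed. In Con_TSA against Con the median was -0.32. It was -0.06 with the authors' deposited values and between -0.25 and -0.19 under the other alternatives. In IL1_TSA against IL1 it was -0.17, then -0.11 with the deposited values and between -0.22 and -0.15 under the others. With the authors' deposited values, 0 members were higher and 3 lower in Con_TSA against Con, 1 higher and 4 lower in IL1_TSA against IL1, 0 higher and 0 lower in IL1 against Con, 0 lower in IL1_TSA against Con_TSA, and 0 higher and 3 lower in both TSA comparisons. Among all genes these values gave 508 higher and 402 lower in Con_TSA against Con, 644 and 586 in IL1_TSA against IL1, 339 and 86 in IL1 against Con, and 89 and 11 in IL1_TSA against Con_TSA. In IL1 against Con, 0 were lower without background correction (64.6% of all called genes were then higher, against 51.9%, and 78.9% against 60.4% in IL1_TSA against Con_TSA) and 0 without the detection filter, and probes detected on all 4 arrays left 0 higher and 0 lower. Among all genes, 361 were lower without background correction and 663 without the detection filter. With probes detected on all 4 arrays, 560 were higher and 528 lower. The brightest probe gave 2 lower in IL1_TSA against Con_TSA (SMARCD3 and SMARCAL1), where 289 of all 10128 genes were lower. Median scaling gave 2 higher in both TSA comparisons (INO80B and ARID3B), and among all genes 349 higher and 347 lower in IL1_TSA against Con_TSA, against 425 and 279. Of the 36 members, 32 had a probe detected on all 4 arrays. Of these, 11 were lower and 2 higher in Con_TSA against Con, and 7 lower and 3 higher in IL1_TSA against IL1. Such a probe was found for 8350 of all genes. Of those, 1253 were lower and 1171 higher in Con_TSA against Con, and 1386 lower and 1501 higher in IL1_TSA against IL1. For calls in both TSA comparisons, the share of all genes under these alternatives was not counted. Those member counts thus have no background beside them and are not read as a result about the members. An additive fit of TSA and IL-1, chosen after seeing the data, called 9 members lower and 1 higher. INO80D is 1 of the 9, and the detection filter fixed its direction. No paired analysis was possible because every sample carries replicate number 1, so the numbers pair nothing. Leaving out an array leaves its comparison without a value and the additive fit without residual degrees of freedom. Detection limits INO80D, CHD3, CHD6 and ARID5A, which were at background on at least 1 array.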
